A study of Homo sapiens with 12 samples.

Results

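The comparison described here was between SNU308 cells given siCEACAM6#3, 1 of the study's small interfering RNAs (siRNAs) against CEACAM6, and SNU308 cells given a non-targeting control siRNA (NTC). SNU308 is an established human gallbladder cancer cell line, labelled wild type, and no group carried another alteration. The members were chosen by their labels alone, which gave 4 siCEACAM6#3 and 4 NTC samples, or 8 of the 12 samples of the series. The remaining 4 samples received a second siRNA, siCEACAM6#2, and entered the shared estimate of spread, the direct contrast between the siRNAs and the comparisons of replicate spread and seed sites. All samples were transfected at 25 nM and RNA was taken after 3 days. No label says whether replicates were separate cultures, so p-values measure only the spread between these samples, which may be technical.

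CEACAM6 is a cell surface glycoprotein of the carcinoembryonic antigen family, held in the membrane by a lipid anchor and able to bind itself and related family members on neighboring cells. It is raised in many carcinomas of the digestive tract and is known for its links to cell adhesion and to resistance against death on loss of anchorage. An siRNA is loaded into an Argonaute protein, which keeps its guide strand and cuts RNA that pairs with the guide along its whole length. The guide can also lower RNAs that pair only with its seed, bases 2 to 8, mostly through sites in 3′ untranslated regions (UTRs), as a microRNA does.

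The siRNA target and the guide derived from it are shown because the off-target values further down depend on their letters. The target came from the study's supplementary oligonucleotide list, the guide is its reverse complement written with T for U, and the capitals mark the seed in the guide and the bases pairing with it in the target.
siCEACAM6#3 target: ctcctaatagtcaTACTAGTa
siCEACAM6#3 guide: tACTAGTAtgactattaggag
The target lay on the plus strand of GRCh38 at chr19:41771611-41771631, in the last of the 6 exons of CEACAM6 and within its 3′ UTR (transcript ENST00000199764.7, GENCODE release 44). Among the longest annotated transcripts, 1 gene matched it without mismatch, which was CEACAM6. The next closest gene was TF, with 3 mismatches and a log2 difference of −0.10, and 5 genes had 4 mismatches.

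The total estimated count per sample ran from 21799476 to 22059456 over the 12 samples, and 17620 genes passed the filter on low counts and were tested. Depth therefore differed little, and counting error mattered mainly for genes of low level. Gallbladder epithelial keratins were abundant: KRT19 reached 3224 ± 103 TPM (SD, n = 4) in NTC and 3286 ± 253 TPM in siCEACAM6#3 cells, and EPCAM reached 238 ± 6.61 and 228 ± 30.8 TPM. KRT7, a keratin of biliary epithelium, was at 1977 and 2220 TPM, and SOX9, a transcription factor of bile duct cells, at 9.63 and 11.4 TPM in NTC and siCEACAM6#3 cells. The other listed epithelial markers SOX17 and KRT20 were close to 0, SOX17 at 0.0129 and 0.0194 TPM and KRT20 at 0.176 and 0.164 TPM. Of 20 markers of blood, endothelial, stromal and liver cells, 15 lay under 1 TPM in every NTC sample and 14 in every siCEACAM6#3 sample. Their summed level was 53.9 to 70.6 TPM in NTC and 55.0 to 89.0 TPM in siCEACAM6#3 samples, with CD68 (34.7 and 45.1 TPM) and ACTA2 (20.4 and 20.3 TPM) leading. The score of this marker list (mean log2 CPM of its 8 tested members minus the NTC mean) was 0.526 in siCEACAM6#3 replicate 4, against −0.121 to 0.138 in NTC and −0.072 to 0.045 in the other siCEACAM6#3 samples, and its part in the results was not tested. The share of counts from the mitochondrial genome was 11.8 to 12.9% in NTC and 12.5 to 15.3% in siCEACAM6#3 samples. Replicate 1 had the lowest of the siCEACAM6#3 shares. On the first principal component it lay next to the NTC samples, but on the second it stood apart, at 20.8 against −13.6 to 4.53. Results are given with and without replicate 1.

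The targeted gene was examined first. CEACAM6 stood at 524, 569, 596 and 619 CPM (counts scaled to library size) in the 4 NTC samples and at 423, 386.5, 424 and 438 CPM in the 4 siCEACAM6#3 samples. Every knockdown sample lay below every control sample. The remaining transcript was 72.5% of the NTC mean, a log2 fold change of −0.46 ± 0.067 (SE), with an adjusted p of 0.0151 by limma-voom and a two-sided exact permutation p of 0.0286, the smallest that 4 against 4 samples allow. The adjusted p rose above 0.05 without NTC replicate 2, 3 or 4 or siCEACAM6#3 replicate 3, with log2 fold changes of −0.465, −0.44, −0.43 and −0.4665. The siCEACAM6#2 samples held less of it, and the direct difference of siCEACAM6#3 from siCEACAM6#2 was 0.35 ± 0.068 on the log2 scale (adjusted p = 0.0160, limma-voom). Reads shared with CEACAM5 and other near-identical family members were divided by estimation, so the levels of these genes are uncertain. Of the 5 family members tested, CEACAM6 was the only one called, and 4 of the 5 fitted changes were positive, as were 48.9% of those over all tested genes. CEACAM5 (0.33 ± 0.090, adjusted p = 0.162) and CEACAM1 (0.33 ± 0.10, adjusted p = 0.213) were higher at an unadjusted p under 0.05, as were 5.98% of all tested genes. They lay 0.48 (adjusted p = 0.0142) and 0.51 (adjusted p = 0.0236) above siCEACAM6#2 in limma-voom.

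Across all genes, 12 of 17620 (0.0681%) were called at a Benjamini-Hochberg adjusted p under 0.05, 9 of them higher (0.0511%) and 3 lower (0.017%) with siCEACAM6#3. Unadjusted p-values under 0.05 were found for 2199 genes (12.5%). Apart from the target, the called genes described here were for secreted proteins, membrane and vesicle proteins, an enzyme that builds mucin-type glycans, a mitochondrial transfer RNA and a low-level gene model. The secreted group held FST, SERPINB2 and IGFBP3, all higher.

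FST, a secreted protein that binds and blocks activin, had 71.7 and 76.9 CPM in NTC replicates 1 and 2, 100.2 and 105 CPM in NTC replicates 3 and 4, and 134, 148, 154 and 145 CPM in the siCEACAM6#3 samples (0.73 ± 0.11, adjusted p = 0.0159). Controls thus split into a lower and a higher pair, both under the knockdown samples. SERPINB2, an inhibitor of the plasminogen activator urokinase, showed the same split, with 39.2, 38.1, 56.1 and 58.3 CPM in NTC against 86.0, 83.3, 86.4 and 72.7 CPM (0.80 ± 0.14, adjusted p = 0.0325). IGFBP3, a carrier protein of insulin-like growth factors, had 211, 219, 244 and 239 CPM in NTC and 269.5, 365, 334.5 and 352 CPM with siCEACAM6#3 (0.52 ± 0.086, adjusted p = 0.0249). Its replicate 1 was the knockdown sample nearest to the controls.

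Among membrane and vesicle proteins, OLR1, a scavenger receptor for oxidized low-density lipoprotein, had the largest fold change of the called genes that were detected in both groups. It was low in NTC, at 3.84, 3.34, 4.86 and 4.02 CPM, and reached 7.67, 15.3, 11 and 11.2 CPM with siCEACAM6#3 (log2 fold change 1.46 ± 0.23, adjusted p = 0.0159). Replicate 1 was again the lowest knockdown sample. GPNMB, a transmembrane glycoprotein of lysosomes and melanosomes, stood at 185, 200.5, 182 and 176.5 CPM in NTC and at 227, 262, 281 and 285 CPM with siCEACAM6#3 (0.50 ± 0.077, adjusted p = 0.0159). SYTL2, which tethers secretory vesicles through Rab27, had the tightest groups of the called genes, with 33.8, 33.0, 33.7 and 33.0 CPM against 42.8, 42.3, 44.9 and 42.3 CPM (0.37 ± 0.057, adjusted p = 0.0159). IFI30, a lysosomal thiol reductase used in antigen processing, fell from 46.9, 42.5, 46.2 and 44.03 CPM to 37.3, 32.6, 32.3 and 36.7 CPM (log2 fold change −0.37 ± 0.062, adjusted p = 0.0278).

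GALNT5, a transferase that adds the first sugar of mucin-type O-glycans, had 57.8, 55.2, 60.7 and 58.1 CPM in NTC and 78.5, 84.9, 84.3 and 76.6 CPM with siCEACAM6#3 (0.48 ± 0.055, adjusted p = 0.00126). Its groups were far apart relative to their spread. MT-TP, the mitochondrial transfer RNA for proline, had 55.5, 62.6, 61.0 and 55.6 CPM in NTC and 78.9, 85.8, 87.9 and 76.0 CPM with siCEACAM6#3 (0.49 ± 0.070, adjusted p = 0.0151). It is encoded on the minus strand of chromosome M from 15956 to 16023, a short RNA in libraries made by selecting polyadenylated RNA. ENSG00000284956, a readthrough protein-coding model on the plus strand of chromosome 8 from 23084403 to 23115536, had estimated counts of 5, 16, 11 and 13 in NTC and 0 in all 4 siCEACAM6#3 samples. Against a floor of 3 counts per library (0.137 CPM), its NTC mean of 0.508 CPM was at least 3.72-fold higher (adjusted p = 0.00126). The model overlaps TNFRSF10C, so the assignment of its reads is uncertain.

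**Figure D1:**
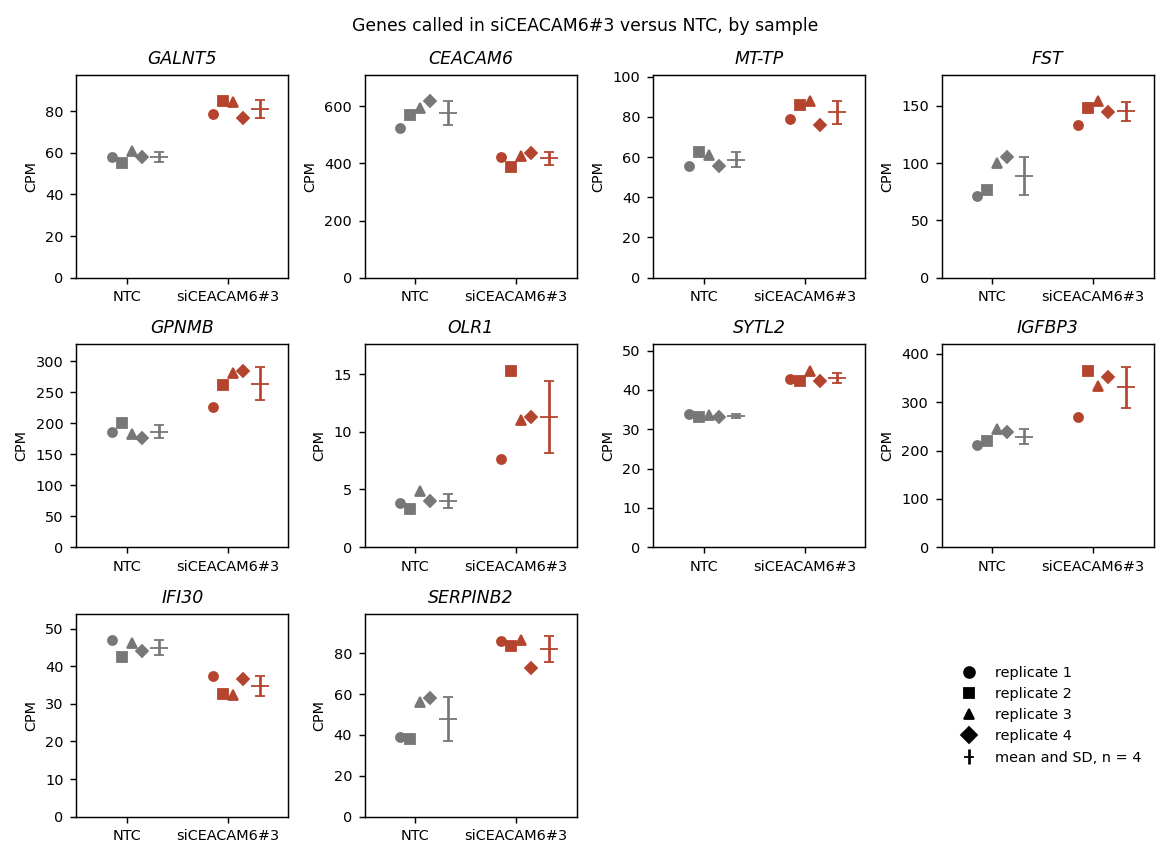
CPM (vertical axes, from 0) in each of the 4 NTC and 4 siCEACAM6#3 samples for 10 of the 12 called genes, with the mean and SD at the right of each group. ENSG00000284956, at 0 in every siCEACAM6#3 sample, is among those left out. In each panel the groups do not overlap, and siCEACAM6#3 replicate 1 (circle) is the knockdown sample nearest to NTC for OLR1, IGFBP3, FST, GPNMB and IFI30.

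The calls rested on all replicates to a different degree. When the model was refitted without each of the 12 samples in turn, GALNT5 and ENSG00000284956 were called every time, MT-TP and FST in 9 of 12, and IFI30 in 4 of 12. The fewest calls came without siCEACAM6#3 replicate 3, when 2 of the 12 genes remained. Between 3 and 6 of them remained without an NTC sample (3 without replicate 1, 4 without replicate 2, 6 without replicate 3 and 5 without replicate 4). The number called reached 29 without siCEACAM6#2 replicate 1 and 47 without siCEACAM6#3 replicate 4, all 12 genes included in both. Fold changes moved less than calls, from 1.30 to 1.64 for OLR1, 0.64 to 0.82 for FST and −0.40 to −0.33 for IFI30 on the log2 scale. They were 0.46 to 0.58 for GPNMB, 0.35 to 0.38 for SYTL2, 0.47 to 0.63 for IGFBP3, 0.70 to 0.91 for SERPINB2 and 0.46 to 0.52 for MT-TP. With log2(TPM + 1) in place of counts, limma-trend called 4 genes, all lower and 3 of them among the 12, and none of the 9 higher genes.

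The direct contrast of the siRNAs called 259 of 17620 genes (1.47%) at an adjusted p under 0.05, and 6 of the 12 genes were among them. Besides CEACAM6, these were SYTL2 (0.31 ± 0.057 higher with siCEACAM6#3, adjusted p = 0.0140), IGFBP3 (0.40 ± 0.086, adjusted p = 0.0264), MT-TP (0.33 ± 0.070, adjusted p = 0.0262), IFI30 (−0.35 ± 0.062, adjusted p = 0.0111) and ENSG00000284956, which siCEACAM6#2 samples held at 0.228 to 0.537 CPM (adjusted p = 0.00189). For 5 others the difference between the siRNAs was 0.13 ± 0.054 (GALNT5), 0.03 ± 0.11 (FST), 0.21 ± 0.076 (GPNMB), 0.53 ± 0.19 (OLR1) and −0.0092 ± 0.13 (SERPINB2). None of these 5 passed the adjusted test, which does not show that the siRNAs acted alike. The 6 genes that differed became 2 without siCEACAM6#3 replicate 3 and 3 without siCEACAM6#2 replicate 3.

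Few other genes came close to the adjusted threshold, and pathways were therefore described by how many listed genes lay to one side. The 32 lists held 908 tested genes, of which 5 were called. Over all tested genes, 5.98% were higher and 6.5% were lower at an unadjusted p under 0.05, and the 4 against 4 samples did not overlap for 2.99% (higher) and 3.29% (lower). The median log2 fold change of all genes was −0.0032. Since RNA came from whole cultures, fewer cells of a type and less RNA per cell cannot be told apart.

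Genes of cell division lay lower with siCEACAM6#3. Of 30 mitotic cyclins, kinases and checkpoint genes, none was called, 22 were lower and 0 higher at an unadjusted p under 0.05, and 14 did not overlap between the groups (median log2 fold change −0.20). CDC20, which activates the anaphase-promoting complex, had 68.9, 68.2, 76.9 and 73.9 CPM in NTC and 60.4, 57.8, 53.3 and 58.2 CPM with siCEACAM6#3 (−0.33 ± 0.066, adjusted p = 0.102). UBE2C, the ubiquitin carrier of the same complex, had 78.8, 78.7, 83.0 and 80.8 CPM against 72.1, 57.5, 59.9 and 62.8 CPM (−0.35 ± 0.077, adjusted p = 0.109). In both, all knockdown samples lay below all controls, and for UBE2C replicate 1 stood nearest to them.

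The kinetochore, spindle and cytokinesis list showed 20 of 48 genes lower and 0 higher at an unadjusted p under 0.05, with 11 not overlapping (median −0.18). KIF18B, a kinesin of spindle microtubules, had a log2 fold change of −0.30 ± 0.072 (adjusted p = 0.132), and SPAG5, a spindle protein, −0.21 ± 0.057 (adjusted p = 0.170). Of 56 genes of replication licensing and DNA synthesis, 21 were lower and 0 higher, and 6 did not overlap (median −0.18). POLD1, the catalytic subunit of DNA polymerase delta, had −0.26 ± 0.053 (adjusted p = 0.106). TK1, a thymidine kinase of the S phase, had 116, 103, 108 and 106.5 CPM in NTC and 93.0, 77.2, 75.9 and 86.4 CPM with siCEACAM6#3 (−0.38 ± 0.087, adjusted p = 0.119). The number lower on the replication list was 35 without siCEACAM6#3 replicate 1 and 13 without replicate 2.

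The 4 knockdown samples did not share this pattern evenly. A list score was taken in each sample as the mean over tested members of log2 CPM minus the NTC mean. For the replication list it was 0.028 in siCEACAM6#3 replicate 1 but −0.341, −0.170 and −0.249 in replicates 2, 3 and 4, while NTC samples ran from −0.055 to 0.045. Replicate 1 was thus within the NTC range. The same held for the kinetochore list, with scores of −0.0015, −0.186, −0.162 and −0.329 against −0.041 to 0.018. On the mitotic list replicate 1 (−0.074) lay outside the NTC range of −0.024 to 0.037, though nearer to it than the other replicates (−0.258, −0.211 and −0.304).

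No listed inhibitor of the cell cycle was higher at an unadjusted p under 0.05 with all samples, though 1 was without siCEACAM6#3 replicate 2 or 4. Of 8 cyclin-dependent kinase inhibitors, 4 were lower, among them CDKN2C (−0.33 ± 0.14, adjusted p = 0.344), and all overlapped between groups. The 4 became 0 without siCEACAM6#3 replicate 2 or NTC replicate 2, and 2 without replicate 3 of either group. Of 30 p53 target genes, 2 were higher and 7 lower (median −0.044), with CCNG1, a cyclin induced by p53, at 0.23 ± 0.056 (adjusted p = 0.134). The 7 became 3 without siCEACAM6#3 replicate 3 or without NTC replicate 1 or 2, and 4 without siCEACAM6#3 replicate 2.

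Surface glycoproteins and receptors for matrix lay to the higher side. Of 11 tested mucins, the heavily O-glycosylated proteins of epithelial surfaces, none was called, 7 were higher (unadjusted p under 0.05) and 0 lower, and 2 did not overlap (median 0.31). MUC5AC, a secreted gel-forming mucin, had 100.5, 91.0, 87.0 and 100.1 CPM in NTC and 108.5, 135, 115 and 142.5 CPM with siCEACAM6#3 (0.40 ± 0.085, adjusted p = 0.109). MUC5AC lay 0.67 ± 0.086 above siCEACAM6#2 (adjusted p = 0.00189). MUC1 (0.53), MUC16 (0.72), MUC20 (0.41) and MUC5B (0.55) also lay above siCEACAM6#2 at an adjusted p under 0.05. Over all tested genes, 1.47% differed between the siRNAs. Changes of these 4 mucins from NTC were smaller, at 0.30, 0.33, 0.22 and 0.18. The other tested mucins did not pass. MUC4, a transmembrane mucin that binds ERBB2, had 12.8, 14.02, 13.7 and 16.9 CPM against 14.8, 28.1, 17.1 and 23.3 CPM (0.50 ± 0.17, adjusted p = 0.257), with replicate 1 inside the control range. The 7 mucins became 3 without siCEACAM6#3 replicate 4 and 4 without NTC replicate 1 or 2.

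Of 18 integrin subunits, the chains of the heterodimeric receptors for matrix, 8 were higher and 1 lower, and 4 did not overlap (median 0.24). ITGB6, a partner of the alpha-v chain on epithelia, had 18.04, 21.8, 21.8 and 21.5 CPM in NTC and 25.0, 29.0, 27.6 and 23.3 CPM with siCEACAM6#3 (0.34 ± 0.086, adjusted p = 0.147). Other members at an unadjusted p under 0.05 were ITGA2 (0.40), ITGAV (0.33), ITGA3 (0.27), ITGA1 (0.40), ITGB1 (0.16), ITGA5 (0.21), ITGB4 (0.17) and ITGB8 (−0.24). The integrin score exceeded the NTC range (−0.124 to 0.076) in all 4 knockdown samples, at 0.151, 0.226, 0.293 and 0.332. On log2(TPM + 1), where the median of all genes was −0.042, the medians were 0.038 for integrins and 0.092 for mucins. Of 21 tested transferases of mucin-type O-glycosylation, GALNT5 was called, 6 were higher (unadjusted p under 0.05) and 0 lower, and 3 did not overlap (median 0.12).

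For genes whose products act downstream of such receptors, list medians were near the −0.0032 of all genes. At an unadjusted p under 0.05, 5.98% of all tested genes were higher and 6.5% lower. The ERK genes exceeded this share on the higher side, the ERBB genes on both, and the adhesion and survival genes on both by little. Of 45 genes of adhesion and survival signaling, 3 were higher and 3 lower (median 0.01), and of 33 genes of ERK output and feedback, 5 were higher and 2 lower (median 0.01). DUSP5, a phosphatase acting on ERK, had 158, 164, 189 and 211 CPM in NTC and 179, 267, 227 and 257 CPM with siCEACAM6#3, with overlapping groups (0.36 ± 0.12, adjusted p = 0.254). PARVA, an adaptor of integrin-linked kinase, had 0.21 ± 0.061 (adjusted p = 0.179). The counts moved when single samples were left out: ERK genes higher became 1 without NTC replicate 1, 2 without NTC or siCEACAM6#3 replicate 2 and 3 without siCEACAM6#3 replicate 3, and adhesion and survival genes higher became 7 and 6 without siCEACAM6#3 replicates 1 and 4, and 1 without siCEACAM6#3 replicate 2 or NTC replicate 1 or 2. Of 20 ERBB receptors and ligands, 3 were higher and 3 lower, with AREG, a ligand of the epidermal growth factor receptor, at 34.2, 34.1, 42.5 and 45.8 CPM in NTC and 58.8, 58.8, 57.6 and 47.7 CPM with siCEACAM6#3 (0.52 ± 0.11, adjusted p = 0.109). The 3 higher became 6 without siCEACAM6#2 replicate 1 or siCEACAM6#3 replicate 1 or 4, and the 3 lower became 1 when siCEACAM6#3 replicate 2 or 4, NTC replicate 1 or NTC replicate 2 was left out.

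Secreted factors formed a further group on the higher side. The list of senescence and secretory genes held 2 called members, SERPINB2 and IGFBP3, and 13 of its 33 tested genes were higher (unadjusted p under 0.05) and 2 lower (median 0.17). MMP13, a collagenase, had a log2 fold change of 0.22 (adjusted p = 0.147) and IGFBP2 of 0.33 (adjusted p = 0.178). IL6, a cytokine that is a common member of secretory senescence lists, pointed the other way at −0.88 (adjusted p = 0.179). The score of this list overlapped between the groups, at 0.080, 0.110, 0.151 and 0.181 with siCEACAM6#3 and −0.149 to 0.106 in NTC. Of 12 tested genes of the plasminogen activator system, SERPINB2 was called and TFPI2, a protease inhibitor of the extracellular matrix, had 0.54 (adjusted p = 0.109), and 0 were lower. Of 33 genes of the activin and transforming growth factor beta axis, FST was called, 6 were higher and 0 lower (median 0.097), which became 11 higher without siCEACAM6#3 replicate 1. LTBP1, a binding protein of latent transforming growth factor beta, had 0.16 (adjusted p = 0.237), and BMP2 had 0.31 (adjusted p = 0.262).

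Among secreted epithelial defence genes, 6 of 22 were higher and 0 lower, though the list median was 0.03. C3, the central complement protein, had 3.66, 4.59, 5.64 and 4.88 CPM in NTC and 7.45, 6.22, 6.87 and 7.91 CPM with siCEACAM6#3 (0.61 ± 0.13, adjusted p = 0.106). SAA1, an acute phase protein, had 0.61 ± 0.14 (adjusted p = 0.125). Both were low in level, and their groups did not overlap.

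Double-stranded RNA given to cells can be sensed as foreign, and genes of that response were listed for this reason. NTC cells also received siRNA at 25 nM, so a response common to both groups cannot be seen in this comparison. Of 43 interferon-stimulated and RNA-sensing genes, 10 were higher (unadjusted p under 0.05) and 0 lower, and 5 did not overlap (median 0.098). IFI30, an interferon-inducible gene by its name, was not on this list and was called lower (−0.37, limma-voom adjusted p = 0.0278). OASL, an antiviral protein of the oligoadenylate synthetase family, had 7.32, 8.502, 8.76 and 6.02 CPM in NTC and 10.1, 8.71, 10.7 and 11.4 CPM with siCEACAM6#3 (0.43 ± 0.12, adjusted p = 0.179). SAMD9, an interferon-induced antiviral factor, was 0.31 ± 0.067 higher than with siCEACAM6#2 (adjusted p = 0.0302). The list scores were 0.131, 0.143, 0.086 and 0.130 in the knockdown samples and −0.079 to 0.070 in NTC, so that all 4 knockdown samples, replicate 1 included, lay above every control. On log2(TPM + 1) the list median was 0.0083, against −0.042 for all genes.

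For 27 tested genes of NF-kB and the tumor necrosis factor superfamily, 4 were higher and 0 lower, and the same number did not overlap (median 0.079). TNFAIP3, a feedback inhibitor of NF-kB, had 5.58, 6.59, 7.62 and 8.12 CPM in NTC and 10.0, 12.9, 11.4 and 9.27 CPM with siCEACAM6#3 (0.64 ± 0.16, adjusted p = 0.138). The 13 genes of the RNA interference machinery had a median of 0.012, with 1 higher and 1 lower. These were AGO4, an Argonaute protein (0.22 ± 0.074, adjusted p = 0.250, and −0.045 on log2(TPM + 1)), and DGCR8, which processes primary microRNAs (−0.17 ± 0.076, adjusted p = 0.390).

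Metabolic genes lay lower in 2 lists. Of 30 genes of the NRF2 antioxidant response, 16 were lower and 0 higher at an unadjusted p under 0.05, and 9 did not overlap (median −0.13). NQO1, a quinone reductase, had 1922, 2035, 1927 and 1929 CPM in NTC and 1822, 1569, 1689 and 1607 CPM with siCEACAM6#3 (−0.23 ± 0.048, adjusted p = 0.109), and lay −0.25 ± 0.048 from siCEACAM6#2 (adjusted p = 0.0158). PGD, an NADPH-producing enzyme of the pentose phosphate pathway, had −0.20 ± 0.045 (adjusted p = 0.126). Of 35 genes of cholesterol and fatty acid synthesis, 18 were lower and 0 higher, and 11 did not overlap (median −0.14). DHCR7, the last enzyme of one branch of cholesterol synthesis, had 213, 205, 212 and 206 CPM against 184, 173, 171 and 196 CPM (−0.21 ± 0.051, adjusted p = 0.134). Its 3′ UTR held the 7-base match to the seed of the siCEACAM6#3 guide, as did 997 genes in all, and the part of this match was not tested. All 4 knockdown samples scored below every NTC sample on both lists, with NRF2 scores of −0.084, −0.250, −0.128 and −0.136 against −0.047 to 0.038 and cholesterol scores of −0.100, −0.225, −0.158 and −0.110 against −0.028 to 0.017.

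All 13 mitochondrially encoded protein genes were higher at an unadjusted p under 0.05 (median 0.23), none was called, and 1 did not overlap. That gene, MT-ATP8, a subunit of the ATP synthase, had 775, 800.3, 806 and 834 CPM in NTC and 885, 1360, 1205 and 1323 CPM with siCEACAM6#3 (0.55 ± 0.11, adjusted p = 0.091). Replicate 1 stood close to the controls. Its list score of 0.015 fell within the NTC range (−0.097 to 0.076), while the other knockdown samples scored 0.437, 0.266 and 0.314. The 13 became 8 without NTC replicate 2. The 76 nuclear genes for respiratory chain subunits had a median of −0.039, with 0 higher and 5 lower, which became 11 without siCEACAM6#3 replicate 1 or 4 and 0 without NTC replicate 1 or 3 or siCEACAM6#3 replicate 3. Without siCEACAM6#3 replicate 2, 7 were higher and 1 lower, and the median turned to 0.017. For 79 cytosolic ribosomal protein genes, 16 were higher and 0 lower (median 0.061, and −0.024 on log2(TPM + 1), where all genes had −0.042), and the 16 became 27 without siCEACAM6#3 replicate 2 and 10 without NTC replicate 1 or 4. Hypoxia and glycolysis genes had 3 of 36 higher and 10 lower (median −0.045), with ENO2, an enolase, at −0.68 ± 0.16 (adjusted p = 0.131), and the 10 became 6 without siCEACAM6#3 replicate 2.

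The remaining lists had medians from −0.014 (hyaluronan metabolism) to 0.064 (epithelial junctions), against −0.0032 for all genes. Most of their counts exceeded the 5.98% higher and 6.5% lower of all tested genes in both directions, some by a single gene. Epithelial junctions and keratins exceeded only the higher share. At an unadjusted p under 0.05, the numbers higher and lower were 3 and 1 of 38 for epithelial junctions, 5 and 3 of 18 for matrix metalloproteinases and their inhibitors, 2 and 2 of 12 for lysyl oxidases and collagen hydroxylases, 1 and 1 of 10 for hyaluronan metabolism, 2 and 0 of 18 for keratins, 3 and 6 of 45 for unfolded protein and amino acid stress, and 1 and 1 of 8 tested markers of other cell types. CLDN1, a tight junction protein, had 452, 448, 472 and 496.5 CPM in NTC and 498, 695, 624 and 567 CPM with siCEACAM6#3 (0.34 ± 0.085, adjusted p = 0.138). TIMP1, an inhibitor of matrix metalloproteinases, had 0.25 ± 0.055 (adjusted p = 0.109), and MMP14, a membrane-bound metalloproteinase, had 0.22 ± 0.053 (adjusted p = 0.134). DNAJB9, a chaperone of the endoplasmic reticulum, had 0.32 ± 0.088 (adjusted p = 0.165). Without siCEACAM6#3 replicate 1, 10 junction genes were higher and 12 stress genes lower.

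**Figure D2:**
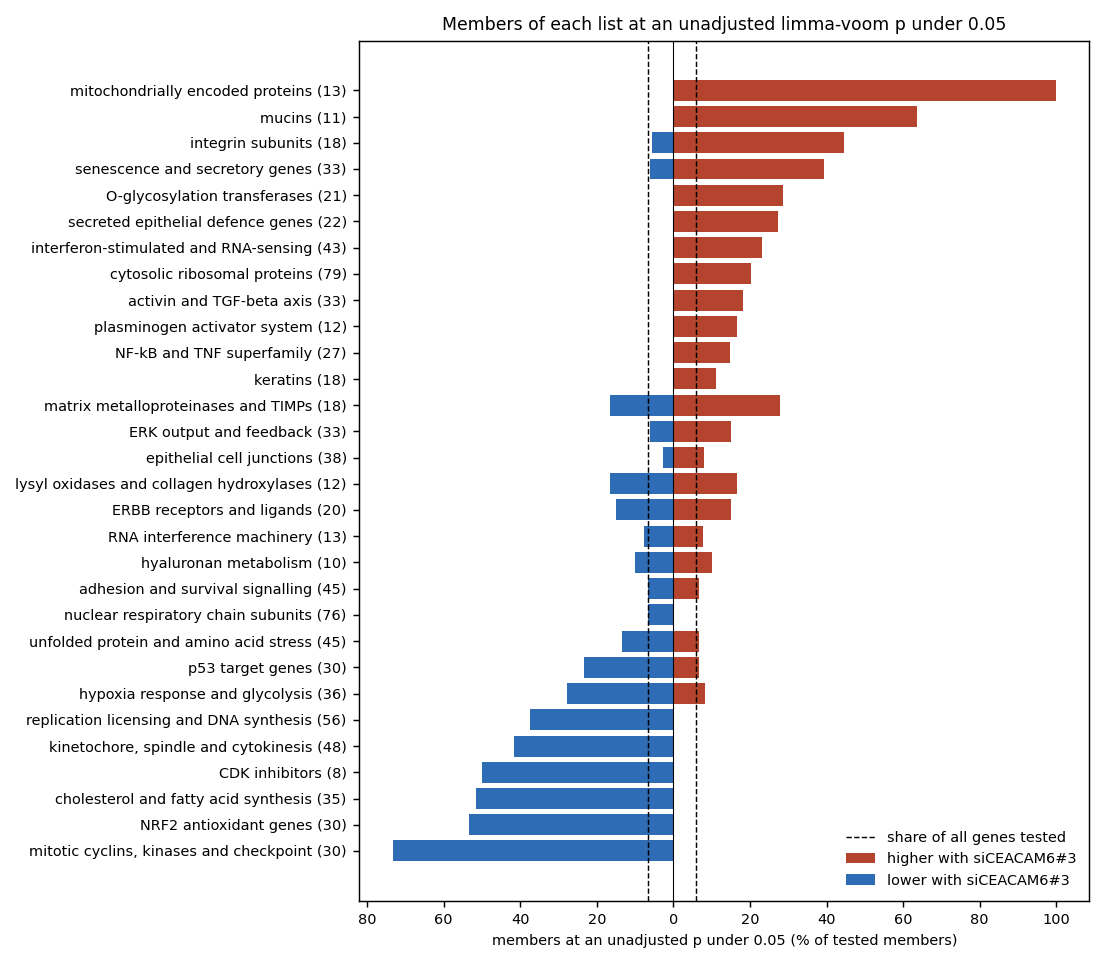
Percentage of the tested members of each gene list (number in brackets) with an unadjusted limma-voom p under 0.05, higher to the right and lower to the left, for lists with 8 or more tested members other than the marker list. The dashed lines give the share of all tested genes, 5.98% higher and 6.5% lower, and the longest bars are the 13 of 13 mitochondrially encoded genes on the higher side and the 22 of 30 mitotic genes on the lower side.

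**Figure D3:**
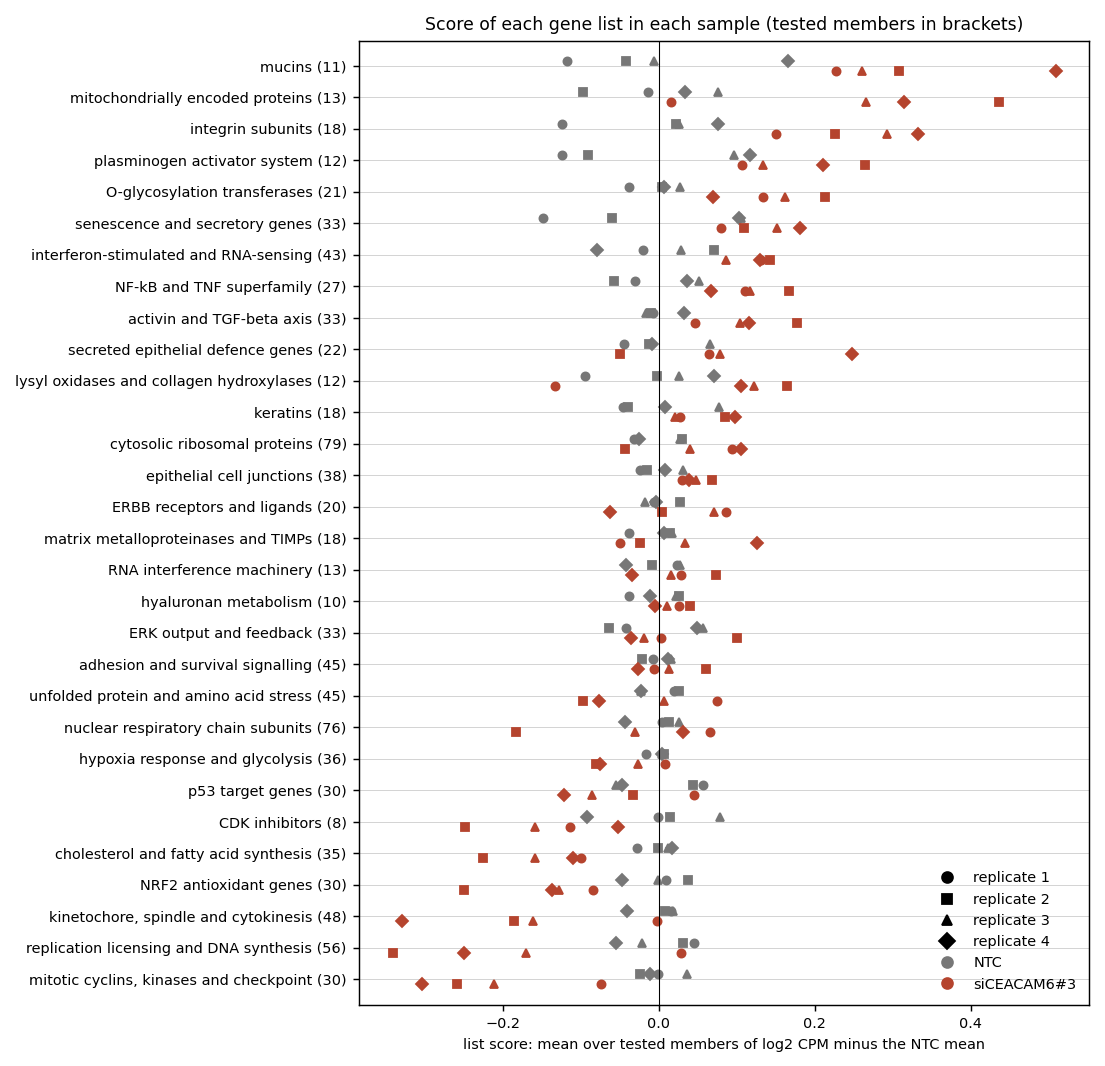
Score of each gene list in each sample (horizontal axis, mean over tested members of log2 CPM minus the NTC mean), with NTC in grey, siCEACAM6#3 in red and the replicate number given by the symbol. On the replication, kinetochore and mitochondrially encoded lists, replicate 1 of siCEACAM6#3 (circle) lies within the NTC samples while the other 3 lie outside.

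The genes with the largest fitted changes among those without overlap were of low level apart from FST and SERPINB2. On the higher side, besides OLR1, SERPINB2 and FST, they were PLA2G4B (1.57 ± 0.68, adjusted p = 0.362), a phospholipase, CCL5 (1.08 ± 0.42, adjusted p = 0.313), a chemokine, KIF26B (0.81 ± 0.21), LRRN1 (0.81 ± 0.17), FILIP1L (0.81 ± 0.24), LINC00842 (0.80 ± 0.25) and ISM2 (0.72 ± 0.17). CCL5 had 0.893, 0.846, 1.06 and 0.730 CPM in NTC and 1.08, 1.79, 2.20 and 2.90 CPM with siCEACAM6#3. On the lower side they were CLEC18A (−0.91), RTN4RL2 (−0.86), NECAB2 (−0.82), ENO2 (−0.68), TYMSOS (−0.66), LOXL3 (−0.65), PPP1R26-AS1 (−0.61), TPI1P2 (−0.60), EFR3B (−0.58) and RPS6KL1 (−0.58). None of these lower genes was called. NECAB2, a calcium-binding protein, came closest, with 9.24, 8.64, 6.84 and 8.26 CPM in NTC and 6.37, 4.05, 3.94 and 4.495 CPM with siCEACAM6#3 (SE 0.16, adjusted p = 0.0829), and it was −1.16 ± 0.15 from siCEACAM6#2 (adjusted p = 0.00189).

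The replicates of siCEACAM6#3 differed more among themselves than those of NTC. Over 11564 genes with a mean of at least 5 CPM, the median SD of log2 CPM was 0.130 in siCEACAM6#3, 0.0892 in siCEACAM6#2 and 0.0737 in NTC samples. The SD was larger in siCEACAM6#3 than in NTC for 9373 of these genes (81.05%), and it exceeded 0.3 for 4.07% of genes in siCEACAM6#3 against 0.770% in NTC. The root mean square difference in log2 CPM between 2 samples was 0.476 to 0.553 (median 0.501) within siCEACAM6#3 and 0.428 to 0.453 (median 0.436) within NTC. Pairs of 1 NTC and 1 siCEACAM6#3 sample differed by 0.4601 to 0.538 (median 0.481). Knockdown replicates were thus as far from each other as from the controls.

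Knockdown replicates 1, 2 and 4 each had more genes apart from the other knockdown replicates than replicate 3 had. On the second principal component, however, replicate 3 had the highest value of all samples shown. The first principal component (22.25% of the variance) placed replicate 1 at −19.4, next to the NTC samples (−18.6 to −5.02), and replicates 2, 3 and 4 at 39.3, 10.2 and 20.4. The second (16.77%) placed replicate 4 at −27.6, replicate 3 at 26.1 and replicate 1 at 20.8, with NTC samples from −13.6 to 4.53. Replicate 1 had 17 genes above and 53 below all 3 other knockdown replicates by more than 0.5 on the log2 scale, replicate 2 had 35 and 37, replicate 4 had 26 and 25, and replicate 3 had 2 and 4. In NTC samples these numbers were 0 to 7 and 5 to 11.

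**Figure D4:**
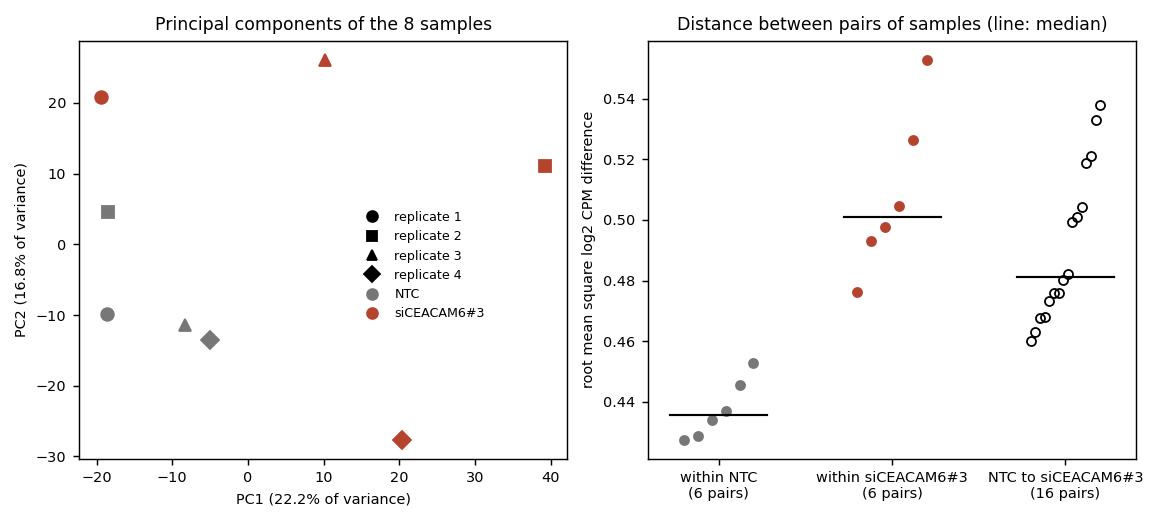
Left, first 2 principal components of log2 CPM for the 4 NTC (grey) and 4 siCEACAM6#3 (red) samples, with the replicate number given by the symbol. Right, root mean square log2 CPM difference for each pair of samples within NTC, within siCEACAM6#3 and between the groups, with the median as a line (0.436, 0.501 and 0.481). The vertical axis does not start at 0.

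The genes with the largest SD among knockdown replicates (at least 5 CPM) included several whose counts cannot be assigned with certainty. CHMP1B-AS1, an antisense RNA, had 8.16, 4.76, 9.35 and 0.749 CPM in the 4 siCEACAM6#3 samples. The pseudogene RPL21P16 had 1.79, 18.2, 15.6 and 16.9 CPM, and in NTC 0.670, 14.5, 16.2 and 12.8 CPM, so replicate 1 of both groups was the low one. SSX2 and SSX2B, near-identical copies of a cancer-testis antigen gene, mirrored each other, and their sum was even, at 37.1 to 44.8 CPM in NTC and 35.0 to 42.7 CPM in siCEACAM6#3 samples.

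Single-copy protein-coding genes were also among the most variable. TGM2, a protein cross-linking enzyme, had 6.10, 27.9, 14.3 and 18.9 CPM with siCEACAM6#3, with 6.65, 9.39, 13.4 and 18.3 CPM in NTC. LOXL4, a lysyl oxidase that cross-links collagen, had 18.6, 56.3, 36.6 and 50.2 CPM, its replicate 1 lying in the NTC range of 14.96 to 21.7 CPM. ZACN, a zinc-activated ion channel, had 11.97, 6.87, 13.3 and 25.2 CPM against 19.4 to 24.1 CPM in NTC, and here replicate 4 was the one at the control level.

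Without siCEACAM6#3 replicate 1, 258 genes were called, 150 higher (0.838%) and 108 lower (0.603%) of 17907 tested, and all 12 genes were among them. In that fit the replication list held 9 called genes, all lower: CDC45, DUT, MCM5, MCM7, POLD1, PRIM1, TK1, TYMS and UHRF1. The mitotic list held 5, also lower (CCNB1, CDC20, FOXM1, PKMYT1 and UBE2C), and the NRF2 list 4 (AKR1B10, NQO1, OSGIN1 and SRXN1). On the higher side were 9 mitochondrially encoded genes, 4 mucins (MUC1, MUC20, MUC4 and MUC5AC), 2 integrins (ITGA2 and ITGA3) and 8 senescence and secretory genes. CEACAM1 (0.45 ± 0.078, adjusted p = 0.0110) and CEACAM5 (0.43 ± 0.077, adjusted p = 0.0159) were also called higher. LOXL4 had a log2 fold change of 1.39 ± 0.19 (adjusted p = 0.00243) and MT-ATP8 of 0.69 ± 0.076 (adjusted p = 4.78e-04) there, against 1.05 ± 0.29 (adjusted p = 0.165) and 0.55 with all samples. Replicate 1 was left out after its values were seen. Its CEACAM6 level of 423 CPM was within the range of the other knockdown samples, 386.5 to 438 CPM.

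Seed pairing was described in the longest annotated 3′ UTR of 13770 tested genes. The 7 letters TACTAGT, the complement of guide bases 2 to 8, occurred on the transcript strand of 997 of them, and an 8-base site, these letters followed by A, in 253 (1.84%). Genes with the 7-base site had a median of 0.00053 against −0.00068 in genes without it, but the samples differed in direction. The medians with the site were 0.050, 0.020, 0.043 and −0.103 in siCEACAM6#3 replicates 1 to 4, against 0.0083, 0.0025, 0.0030 and −0.0034 without it. Genes with the 8-base site had a median log2 fold change of −0.032, were lower in 60.1% of cases against 50.01% of genes without it, and had 35 members (13.8%) lower at an unadjusted p under 0.05 against 6.83% of the others. Only CEACAM6, the intended target and itself one of the 253 and of the 35, was called among them. The 8-base sites of the passenger strand (722 genes) and of the siCEACAM6#2 guide (930 genes) had medians of 0.019 and 0.015.

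The 8-base sites of CEACAM6 and of 3 other genes among those with the smallest p are printed because they hold the same letters as the intended target. They were chosen after the values were seen. Each line gives bases of the transcript on GRCh38 with the seed match in capitals.
CEACAM6: cctaatagtcaTACTAGTagtcatactcc
FAM136A: attgtgatataTACTAGTatctaggaatg
FECH: attggtttttcTACTAGTagattgtgttt
USP22: cataaatgtaaTACTAGTaaagtgaatga
They lie at chr19:41771613-41771641 (plus strand, CEACAM6) and, on the minus strand, at chr2:70296436-70296464 (FAM136A), chr18:57549129-57549157 (FECH) and chr17:21002318-21002346 (USP22), all in 3′ UTRs.

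FECH, the enzyme that inserts iron to form heme, had 73.2, 79.1, 71.9 and 68.4 CPM in NTC and 64.1, 50.6, 58.1 and 58.5 CPM with siCEACAM6#3 (−0.34 ± 0.071, adjusted p = 0.106). It lay −0.32 from siCEACAM6#2 (adjusted p = 0.0332). FAM136A, a mitochondrial protein, had 46.2, 45.9, 46.3 and 43.4 CPM against 39.0, 34.5, 38.5 and 33.3 CPM (−0.33 ± 0.066, adjusted p = 0.102). USP22, a ubiquitin protease acting on histones, had 203, 207, 196 and 198 CPM against 180, 176, 166 and 167 CPM (−0.22 ± 0.048, adjusted p = 0.109), and −0.20 from siCEACAM6#2 (adjusted p = 0.0478). Groups overlapped for none of these 3 genes, and none was called against NTC. Among the 253 genes with the 8-base site, 11 differed between the siRNAs at an adjusted p under 0.05, CEACAM6 included, against 1.47% of all tested genes.

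Over genes of all UTR lengths, the shift with the 8-base site was largest in 1 sample. In siCEACAM6#3 replicate 4 the median log2 difference from the NTC mean was −0.143 for genes with the site and −0.0083 for genes without it. Replicate 2 gave −0.040 and 0.0046, whereas replicates 1 and 3 gave 0.020 and 0.037 with the site against 0.011 and 0.0065 without. Replicate 4 also had lower values for genes with long 3′ UTRs whether or not they held the site: in the class of 3271 to 32870 bases, genes without it had a median of −0.054 there and of 0.048, 0.069 and 0.047 in replicates 1, 2 and 3. Genes with the site in this class had 0.019, −0.019, 0.042 and −0.147 in replicates 1 to 4. All 4 values lay below those without it, replicates 2 and 4 by the most. In each length class, replicates 2 and 4 were lower with the site than without it. Without replicate 4 the medians over all lengths were 0.0045 with and 0.0020 without the site. Without replicate 1 they were −0.049 and 0.0053. In that fit 8 of the 253 genes were called, all lower and CEACAM6 among them. Of the 13517 genes without the site, 89 were called lower, and of all genes tested 0.603%. The part of UTR length in the shift was not tested.

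**Figure D5:**
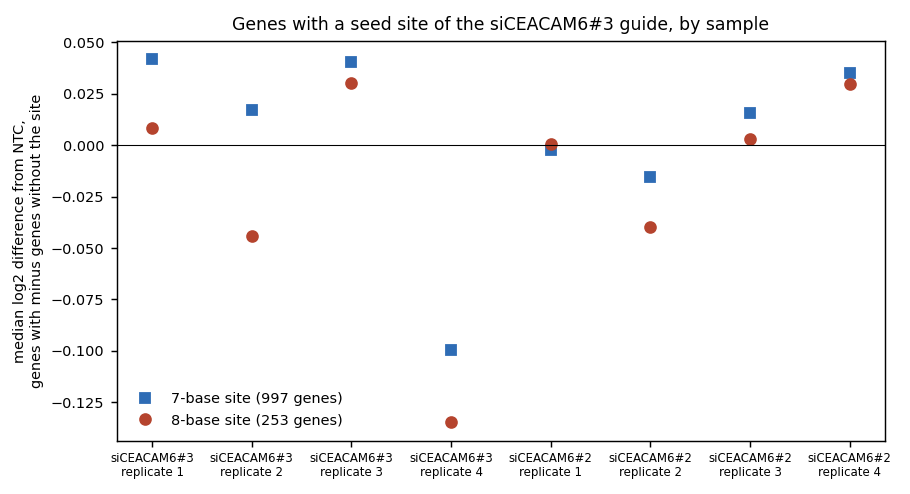
Median log2 difference from the NTC mean of genes with a seed site of the siCEACAM6#3 guide minus that of genes without it, in each siCEACAM6#3 and siCEACAM6#2 sample, for the 7-base site (997 genes, squares) and the 8-base site (253 genes, circles). siCEACAM6#3 replicate 4 is the lowest for both sites, and the siCEACAM6#2 samples, which did not receive this guide, lie on both sides of 0.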

How the data were processed

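RNA-seq profiles of 12 SNU308 samples in 3 groups of 4 were used. The authors trimmed reads with Trim Galore 0.6.4 and quantified transcripts with kallisto (0.4.6 per the labels' processing notes) on GRCh38.p13; the annotation release and the summing to genes are not given in the sources used here. The labels name Oligofectamine and stranded paired reads, and the study's methods RNAiMAX and single reads. The authors deposited unscaled estimated counts for each gene, and TPM, which is scaled for length and depth. Kallisto divides reads shared by several transcripts, so near-identical or overlapping genes are uncertain. Of 60617 identifiers, 60357 matched a symbol.

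Estimated counts were rounded, filtered with filterByExpr and fitted with limma-voom (R 4.3.3, limma 3.58.1, edgeR 4.0.16) on TMM-scaled libraries in 1 model of the 3 groups with no covariate (9 residual degrees of freedom); a gene was called at a Benjamini-Hochberg adjusted p below 0.05. CPM used TMM-scaled library sizes. The self-test on simulated counts for this comparison (17402 genes) recovered 74% of genes changed 1.5-fold and 92% of those changed 2-fold, with 3.49% false calls. Alternatives were edgeR, DESeq2 1.42.0, other scalings and filters, the 8 samples alone, sample weights, a replicate block, unrounded counts, limma-trend on log2(TPM + 1) and log2(TPM + 0.1), and leaving out each sample.

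The text names called genes and genes with the largest SD. It also names the 10 largest changes in each direction among genes without overlap (mean of at least 1 CPM). From the lists it names called members, or else genes among the 2 with the smallest p, but not both for every list. For some lists neither is named. Further members named were chosen after their values were seen. Values of 2 genes and their sequences are not reported here. Members and lists were chosen with earlier results of these data known. Of the list genes, RPL40 and SOD2 had no row. UTRs, exons and coordinates came from GENCODE release 44 on GRCh38.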

Additional observations from a re-analysis of the deposited data

Results flagged for a closer look

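Of 92 groups of 4 values examined, 1 held a sample apart from the rest, and chance flags about 1 in 20. The score of the hypoxia and glycolysis list was −0.01615 in NTC replicate 1, with a gap of 0.880 of the NTC range. Among the 12 called genes, 6 differed between the siRNAs by the direct contrast in limma-voom at an adjusted p under 0.05. On the log2 scale, siCEACAM6#3 minus siCEACAM6#2 was −4.061 for ENSG00000284956 (a fitted value that depends on how 0 counts are handled), 0.3546 for CEACAM6, 0.3294 for MT-TP, 0.3093 for SYTL2, 0.4019 for IGFBP3 and −0.3476 for IFI30.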

How the results depend on the processing

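The number of called genes depended on the method. Against 12 (9 higher, 3 lower), DESeq2 called 155 (87 and 68), no low-count filter 24 (14 and 10), sample weights 382 (194 and 188), and limma-trend on log2(TPM + 1) or log2(TPM + 0.1) 4 each (0 and 4). The fit on the 8 samples compared called 10, 1 of them lower. All 12 genes were among the calls of edgeR (13), DESeq2, sample weights and the fit without a filter. Leaving out 1 sample gave 2 to 258 calls (1 to 150 higher and 1 to 108 lower). These were 3, 4, 7 and 5 without NTC replicates 1 to 4, 29 without siCEACAM6#2 replicate 1, and 258, 9, 2 and 47 without siCEACAM6#3 replicates 1 to 4. CEACAM6 ranged from −0.50 to −0.43 and lost its call without NTC replicate 2 (−0.465), 3 (−0.44) or 4 (−0.43) or siCEACAM6#3 replicate 3 (−0.4665). Of the 12 genes, 6 differed directly between the siRNAs, against 2 in each TPM fit, and 2 to 8 when a sample was left out. AGO4 reversed to −0.045 and −0.052 on log2(TPM + 1) and log2(TPM + 0.1). Of 1045 other values for 81 named genes, 940 kept their direction and side of the threshold. The causes were not tested.

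Replicate numbers were not taken to pair the samples. Residual correlations of same-numbered NTC and siCEACAM6#3 samples ran from −0.0152 to 0.0844. Between the siRNAs they were 0.1846 and 0.1146 for replicates 1 and 2 and close to 0 for the others, and the lowest between NTC and siCEACAM6#2 was −0.0541. A replicate block raised the calls to 87 (45 higher and 42 lower), which held all 12 genes.

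The model had 9 residual degrees of freedom. Depth was near equal across samples, and counting error was largest for genes under about 1 CPM.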
